A study of Mus musculus with 15 samples.

Results

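The 9 genes described here carry, restrain or read out the signal of the TGF-β receptor. They were *Smad2* and *Smad3*, *Smad4*, *Smad6* and *Smad7*, *Ski* and *Skil*, and *Tgfbi* and *Pmepa1*. They were chosen by name, as the rows of the deposited expression table whose gene symbol equalled one of the 9. A gene with several rows would have been represented by the row with the highest mean signal, but each symbol had 1 row. The genes were 9 of 30884 gene symbols and 9 of 32471 transcript clusters, the array's units for one transcribed locus.

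Transcript levels of adult microglia were read by hybridisation on 15 arrays of the type Affymetrix Mouse Gene 2.0 ST, 1 per mouse. The values are log2 signals after robust multi-array averaging (RMA), so that a difference of 1 is a 2-fold change. All mice were male C57BL/6 animals of the *Cx3cr1CreERT2:R26-yfp,Tgfbr2fl/fl* line. They shared the floxed *Tgfbr2* alleles and the yfp reporter, were injected from 6 to 8 weeks of age at 2 times separated by 48 h, and gave microglia 4 weeks later. The Cre/+ TAM mice (n = 6) had 1 Cre allele and received 8 mg tamoxifen. The wt TAM mice (n = 6) received tamoxifen but had no Cre. The Cre/+ OIL mice (n = 3) had the Cre allele and received corn oil, the solvent of the tamoxifen, without tamoxifen. Cre was driven by the *Cx3cr1* locus, which is also active in border-associated macrophages and monocytes, and the Cre allele leaves 1 intact copy of *Cx3cr1*.

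Ligand-bound TGF-β receptors phosphorylate Smad2 and Smad3, which join Smad4, enter the nucleus and act on target genes. Smad6 and Smad7 inhibit this relay, Ski and Skil hold Smad complexes in a repressed state, and *Smad7*, *Skil* and *Pmepa1* are themselves known targets that feed back on the signal. In microglia TGF-β signalling is known for maintaining the homeostatic state. Arrays measure transcript levels and do not see phosphorylation or nuclear entry of the Smads.

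The targeted gene *Tgfbr2* had log2 signals of 7.91 to 8.36 in Cre/+ TAM (median 8.11), 7.91 to 8.26 in wt TAM (median 8.14) and 7.94, 8.32 and 8.49 in Cre/+ OIL. The groups overlapped, and the difference between Cre/+ TAM and wt TAM was 0.02 (SE 0.11, limma adjusted p = 0.992). Recombination removes the exons of the ligand-binding part and leaves the rest of the transcript in frame, so the signal over the whole gene does not check the deletion. Array medians were 4.35 to 4.55, and arrays correlated with r of 0.960 to 0.988 across clusters. All 11 microglia markers lay above the array median, and their mean was 9.88 to 10.41 in Cre/+ TAM, 10.05 to 10.48 in wt TAM and 10.17 to 10.48 in Cre/+ OIL. Markers of border-associated macrophages, the macrophages of the brain's coverings and vessels, had a mean over 11 genes of 4.82 to 6.96 in Cre/+ TAM against 4.33 to 4.52 in wt TAM and 4.25 to 4.41 in Cre/+ OIL. By their means over the 15 arrays 6 of the 11 lay above the array median, and arrays have no true zero for the others. The study's text reports higher *Mrc1*, *Pf4* and *Ms4a7*, which are in this list, in the *Tgfbr2*-deficient microglia. The list therefore cannot tell such macrophages from microglia that express its genes. Neutrophil markers reached a mean of 5.61 in wt TAM mouse 2 and 6.16 in Cre/+ OIL mouse 3, against 3.96 or less elsewhere. The sort gates differed by source: the labels give CD11b+/CD45low for every group, while the study's text gives YFP+/CD45low for Cre/+ TAM, CD11b+/CD45low for wt TAM and no gate for Cre/+ OIL. The animal numbers in the titles fell into 3 separate runs whose meaning is not stated, called sets A, B and C here in ascending order. Set A held wt TAM mouse 3 and Cre/+ OIL mice 1 and 2, all with an unexplained neg in the title, set B held Cre/+ TAM mice 1 and 2, wt TAM mice 1 and 2 and Cre/+ OIL mouse 3, and set C the other 4 Cre/+ TAM and 3 wt TAM mice.

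Cre/+ TAM was first compared with wt TAM, where both groups received tamoxifen. These groups differ in the deletion of *Tgfbr2*, in Cre with its lost *Cx3cr1* copy and, by the study's text, in the sort gate. These cannot be told apart. *Cx3cr1* itself differed by −0.43 (limma unadjusted p = 0.00273, adjusted p = 0.447). Of the 9 genes, 0 passed an adjusted p of 0.05 between Cre/+ TAM and wt TAM, where 0.0246% of all clusters did. The groups stood apart without overlap for 0 of 9 genes, against 0.465% of all clusters. At an unadjusted p of 0.05 the count was 1 of 9, *Tgfbi*, against 5.83% of all clusters. The fitted difference was above 0 for 2 of 9 genes (44.8% of all clusters), and the median was −0.06 against −0.02 over all clusters. The 95% intervals of the 9 differences ran from −0.55 at the lowest to 0.43 at the highest, so a 2-fold change in signal in either direction lay outside each of them. The *Smad6* signal may be background, so its interval does not bound a change of the transcript.

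**Figure D1:**
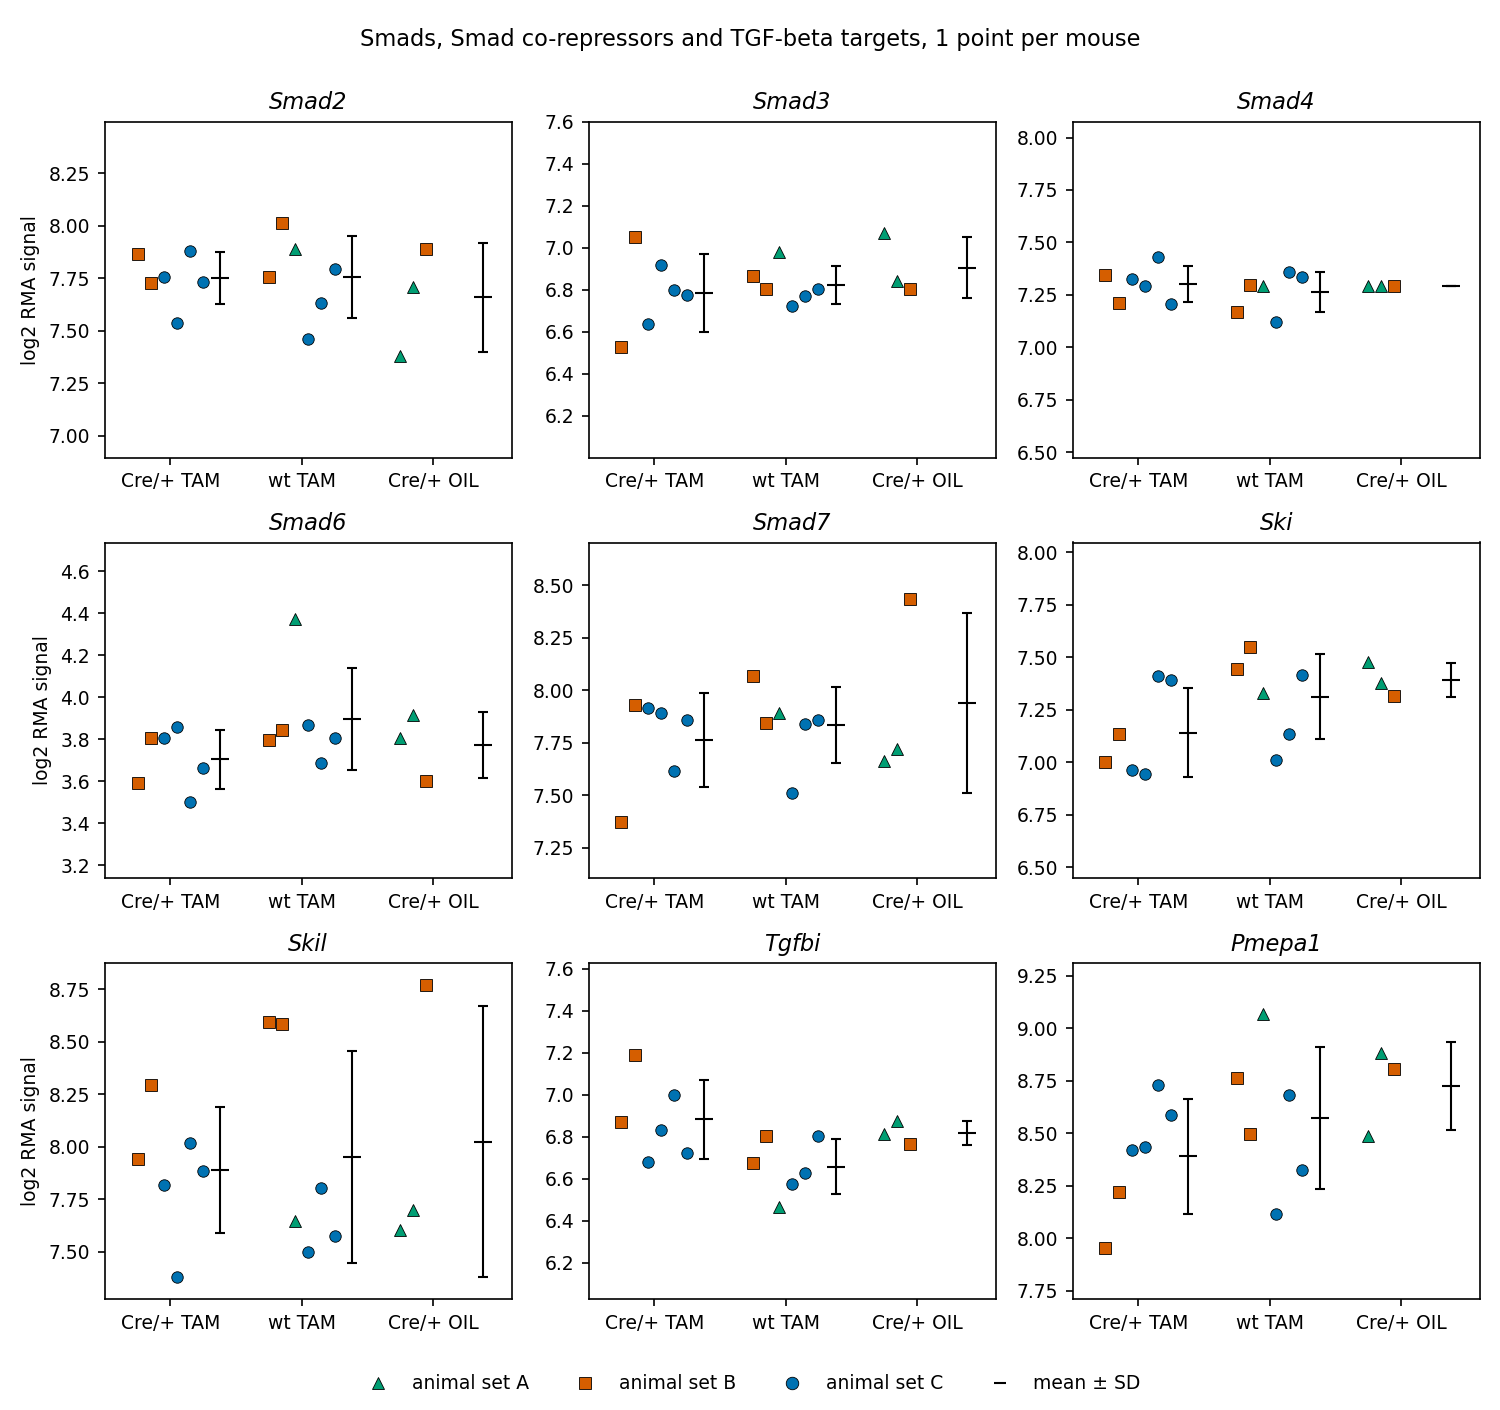
Log2 RMA signal of the 9 genes (vertical axes, each spanning 1.6 log2 units) in Cre/+ TAM, wt TAM and Cre/+ OIL; each point is 1 mouse, coloured and shaped by its set of animal numbers, and bars give mean ± SD. For every gene the groups overlapped in each comparison, and the widest spread over the 15 mice was that of *Skil*, from 7.38 to 8.77.

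The receptor-regulated Smads, which the receptor phosphorylates, had overlapping values in the 3 groups. *Smad2* (chromosome 18, 76241580 to 76311747, plus strand, in the deposited annotation, which names no genome build) had signals of 7.54 to 7.88 in Cre/+ TAM (median 7.74), 7.46 to 8.01 in wt TAM (median 7.77) and 7.38, 7.71 and 7.89 in Cre/+ OIL. The lowest and the highest of the 15 values were in control mice, and the groups overlapped. The difference between Cre/+ TAM and wt TAM was −0.01 (95% interval −0.24 to 0.23, adjusted p = 0.995). *Smad3* (chromosome 9, 63646767 to 63757994, minus strand) had signals of 6.53 to 7.05 in Cre/+ TAM (median 6.79), 6.72 to 6.98 in wt TAM (median 6.80) and 7.07, 6.84 and 6.80 in Cre/+ OIL. Cre/+ TAM mice 1 and 2 lay on opposite sides of all wt TAM values, and the difference was −0.04 (−0.24 to 0.17, adjusted p = 0.981).

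*Smad4* encodes the partner that both receptor-regulated Smads need (chromosome 18, 73639009 to 73703780, minus strand). It was the steadiest of the 9 genes, with signals of 7.21 to 7.43 in Cre/+ TAM (median 7.31), 7.12 to 7.36 in wt TAM (median 7.30) and 7.29 on each Cre/+ OIL array. The difference was 0.04 (−0.12 to 0.20, adjusted p = 0.970). The same deposited value stood on 5 arrays, all 3 of Cre/+ OIL among them, so that group's SD of 0 is no measure of its biological spread. Such ties on the Cre/+ OIL arrays occurred in 50 of 32471 clusters (0.154%). *Smad6* also had 1 value on 4 arrays and *Smad3* on 3.

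The inhibitory Smads are *Smad6*, which mainly restrains the BMP branch, and *Smad7*. *Smad6* (chromosome 9, 63953076 to 64022059, minus strand) lay below the median of every array in all 15 mice, with 3.50 to 3.86 in Cre/+ TAM (median 3.73), 3.69 to 4.37 in wt TAM (median 3.82) and 3.80, 3.91 and 3.60 in Cre/+ OIL. The highest value, 4.37, was wt TAM mouse 3, the other wt TAM mice ended at 3.87, and the groups overlapped. The difference was −0.19 (−0.43 to 0.05, adjusted p = 0.890). A signal this low on an array may be background, so no presence or absence of the transcript is read from it.

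The start of *Smad6* holds the palindromic Smad binding motif GTCTAGAC, which is why its sequence is shown; 0.213% of 32851 RefSeq promoter windows (250 bases before to 50 after a gene start, both strands) have it. The stretch below is chr9:64022050-64022109, minus strand, of GRCm38.p6, written 5′ to 3′ with the motif in capitals, starting at position −4 from the gene start.
Smad6: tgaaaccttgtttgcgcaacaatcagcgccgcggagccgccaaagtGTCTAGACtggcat
Of the 9 genes, 4 were matched to a printable window (*Smad3*, *Smad6*, *Ski* and *Tgfbi*). A match to letters is a description and says nothing of binding in these cells.

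*Smad7*, the feedback inhibitor of the TGF-β branch (chromosome 18, 75367365 to 75395935, plus strand), had signals of 7.37 to 7.93 in Cre/+ TAM (median 7.87), 7.51 to 8.07 in wt TAM (median 7.85) and 7.66, 7.72 and 8.43 in Cre/+ OIL. Cre/+ OIL mouse 3 was the highest of all 15, Cre/+ TAM mouse 1 was the lowest, and the other values overlapped. That Cre/+ OIL mouse also had the highest mean of neutrophil markers, 6.16, whose part in the *Smad7* signal was not tested. The difference was −0.07 (−0.37 to 0.22, adjusted p = 0.970).

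*Ski* and *Skil* encode related co-repressors that bind Smads on target genes. *Ski* (chromosome 4, 155154075 to 155222592, minus strand) had signals of 6.95 to 7.41 in Cre/+ TAM (median 7.07), 7.01 to 7.55 in wt TAM (median 7.37) and 7.48, 7.37 and 7.32 in Cre/+ OIL. Of the Cre/+ TAM mice, 3 of 6 lay below every wt TAM mouse and the other 3 within their range. The difference was −0.17 (−0.41 to 0.07, unadjusted p = 0.151, adjusted p = 0.902). Within set B the difference was −0.43, and the 2 Cre/+ TAM and 2 wt TAM mice did not overlap. *Skil*, *Tgfbi* and *Pmepa1* also stood apart in set B. With so few mice this happens often by chance. Its share over all clusters was not counted, so nothing is read from it about these genes. For *Ski* within set C the difference was −0.01, with 2 of 4 Cre/+ TAM mice above the wt TAM mean. The effect in set C exceeded that in sets A and B combined by 0.36 (limma interaction, unadjusted p = 0.132, adjusted p = 0.939).

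*Skil* (chromosome 3, 31095058 to 31122577, plus strand) had signals of 7.38 to 8.29 in Cre/+ TAM (median 7.91), 7.50 to 8.59 in wt TAM (median 7.73) and 7.60, 7.70 and 8.77 in Cre/+ OIL. Its SD within groups, 0.30, 0.50 and 0.65 in that order, was the widest of the 9 genes. The difference was −0.06 (−0.55 to 0.43, adjusted p = 0.990). The spread went partly with the sets of animal numbers. The 5 mice of set B had a mean of 8.44 against 7.69 in the other 10, a 1.67-fold difference. The values overlapped, with 7.94 the lowest in set B and 8.02 the highest in the other 10. Within wt TAM the means of set B and the other mice were 8.59 and 7.63, and within Cre/+ OIL 8.77 (1 mouse) and 7.65. Neither group showed overlap, but with so few mice this happens often by chance. Its share over all clusters was not counted. Within Cre/+ TAM they were 8.12 and 7.78, and there the values overlapped. Between Cre/+ TAM and wt TAM *Skil* differed by −0.47 within set B and by 0.15 within set C.

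Because the mice that were high in *Skil* came from all groups, 7 immediate-early genes, which cells switch on within minutes of a stimulus, were examined after the values of *Skil* had been seen (*Fos*, *Jun*, *Junb*, *Egr1*, *Egr2*, *Atf3* and *Ier2*). Their mean was 9.07 to 9.96 in the 5 mice of set B and at most 9.03 in the other 10. Taken singly, *Fos*, *Jun*, *Junb* and *Ier2* overlapped between set B and the other 10 mice, and *Egr1*, *Egr2* and *Atf3* did not. By the list mean each group showed the same order, with differences of 1.01 in wt TAM, 2.25 in Cre/+ OIL and 0.81 in Cre/+ TAM. These sizes are not like for like. The other mice were of set A in Cre/+ OIL, of set C in Cre/+ TAM and of both in wt TAM. The immediate-early mean was 7.70 in set A and 8.66 in set C. Among 15573 gene symbols above the median signal, the patterns most like that of *Skil* over the 15 arrays were those of *Cops4* (Pearson r = 0.94), *Ddit3* (0.92) and *Hnrnpu* (0.92). These correlations are descriptions, and their points share the sets of animal numbers. Neutrophil markers were high in 2 of the 5 mice: their mean was 6.16 in Cre/+ OIL mouse 3 and 5.61 in wt TAM mouse 2, and 3.39 to 3.57 in the other 3. The part of neutrophils, or of the state read by the immediate-early genes, in the *Skil* signal was not tested.

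**Figure D2:**
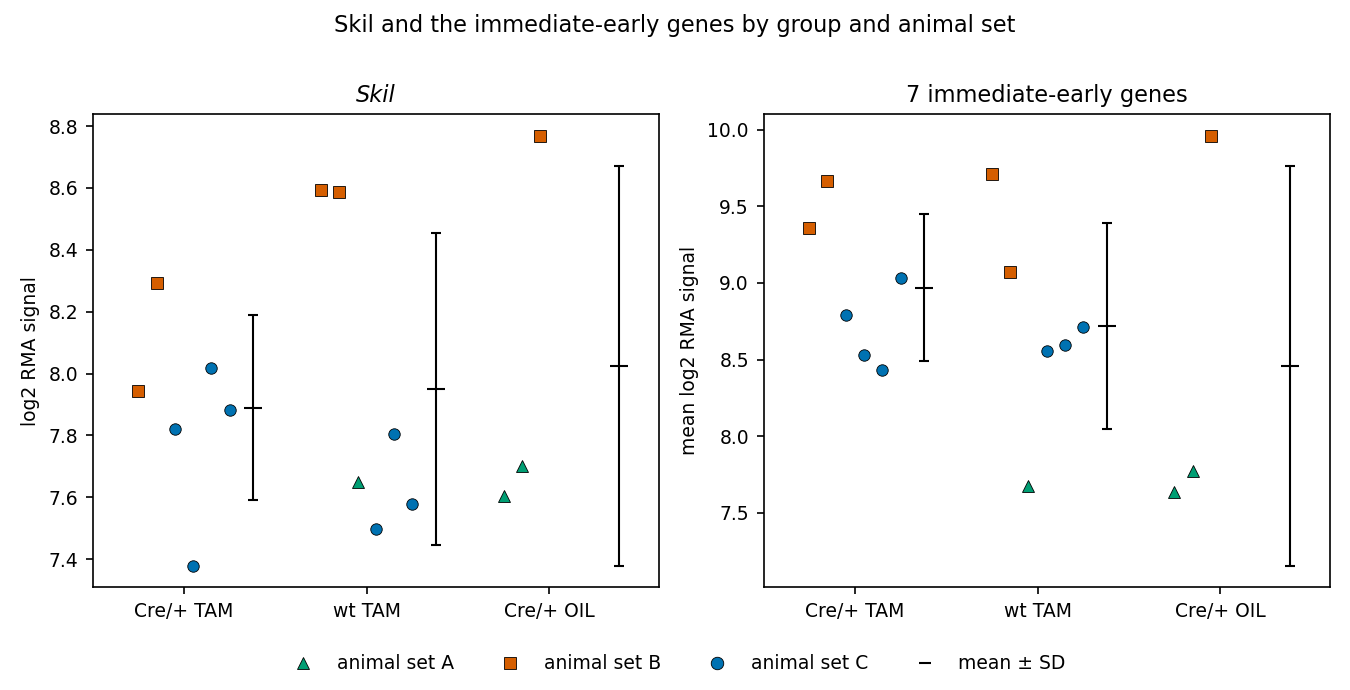
Log2 RMA signal of *Skil* (left) and the mean log2 RMA signal of 7 immediate-early genes (right) by group; each point is 1 mouse, coloured and shaped by set of animal numbers, and bars give mean ± SD. The 5 mice of set B (squares) had *Skil* values of 7.94 or more, against at most 8.02 in the other 10. Their immediate-early means of 9.07 or more exceeded those of the other 10 mice.

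*Tgfbi* encodes a secreted matrix protein named for its induction by TGF-β (chromosome 13, 56609559 to 56639562, plus strand). Its signals were 6.68 to 7.19 in Cre/+ TAM (median 6.85), 6.46 to 6.80 in wt TAM (median 6.65) and 6.81, 6.88 and 6.76 in Cre/+ OIL. Of the Cre/+ TAM mice, 4 of 6 exceeded every wt TAM mouse and 6 of 6 exceeded the wt TAM mean, but the lowest lay inside the wt TAM range. The difference was 0.22, or 1.17-fold (SE 0.10, 95% interval 0.02 to 0.43, unadjusted p = 0.0348), and did not pass the adjustment over all clusters (limma adjusted p = 0.805). Leaving out Cre/+ TAM mouse 2 or 5, or wt TAM mouse 3, 4 or 5, gave unadjusted p-values of 0.0554 to 0.0986. With quantile normalization *Tgfbi* differed by 0.18 (limma unadjusted p = 0.0593, adjusted p = 0.859). The single member under the unadjusted threshold was then *Ski*, at −0.22 (limma unadjusted p = 0.0477, adjusted p = 0.844). The Cre/+ TAM mice were higher by 0.29 in set B, with 2 mice on each side, and by 0.14 in set C. The highest value, 7.19, was Cre/+ TAM mouse 2, where border-associated macrophage markers had a mean of 5.60. The mouse with the highest mean of those markers, Cre/+ TAM mouse 1 at 6.96, had a *Tgfbi* signal of 6.87; the part of such cells in the *Tgfbi* signal was not tested. In sorted pools fewer cells of a type and less RNA per cell cannot be told apart.

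As the gene with the largest fitted difference above 0, *Tgfbi* is shown with its upstream sequence, chr13:56609336-56609585, plus strand, of GRCm38.p6. These are the 250 bases before the RefSeq gene start, from which positions are counted. The start in the deposited annotation, 56609559, lies within this stretch. Capitals mark matches to the Smad box CAGAC, here on the opposite strand as GTCTG, at positions −239 and −85.
Tgfbi: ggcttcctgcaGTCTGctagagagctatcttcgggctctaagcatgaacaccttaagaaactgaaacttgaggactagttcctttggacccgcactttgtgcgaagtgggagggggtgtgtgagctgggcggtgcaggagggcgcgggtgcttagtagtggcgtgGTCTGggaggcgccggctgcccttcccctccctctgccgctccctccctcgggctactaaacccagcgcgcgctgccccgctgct
The Smad box is short and occurred in 49.6% of the 32851 windows. The windows of *Smad3*, *Smad6* and *Ski* held 0 matches to CAGAC, and the 4 windows held 0 matches to the AP-1 letters TGAGTCA or TGACTCA, which 5.20% of all windows had.

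*Pmepa1* encodes a membrane protein that is induced by TGF-β and binds the receptor-regulated Smads (chromosome 2, 173224458 to 173276533, minus strand). Its signals were 7.95, 8.22, 8.42, 8.44, 8.73 and 8.59 in Cre/+ TAM mice 1 to 6. They were 8.76, 8.49, 9.07, 8.11, 8.68 and 8.32 in wt TAM mice 1 to 6 and 8.49, 8.88 and 8.81 in Cre/+ OIL mice 1 to 3. The lowest of the 15 values was Cre/+ TAM mouse 1, and the groups overlapped. The difference between Cre/+ TAM and wt TAM was −0.18 (SE 0.16, −0.51 to 0.15, unadjusted p = 0.259, adjusted p = 0.932).

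The *Pmepa1* difference changed sign between the sets of animal numbers. In set B, with 2 mice on each side, the difference was −0.54. In set C the difference was 0.17, with 4 of 4 Cre/+ TAM mice above the wt TAM mean and 1 of 4, mouse 5 at 8.73, above every wt TAM mouse of the set. The effect in set C, the upper range of numbers, exceeded that in sets A and B, the lower range, by 0.86 (SE 0.26, limma unadjusted p = 0.00511, adjusted p = 0.477). Set A holds no Cre/+ TAM mouse and adds wt TAM mouse 3, whose 9.07 was the highest of the 15 values. With it the lower-range difference was −0.69, against −0.54 in set B alone. In that test 1 of 9 genes had an unadjusted p under 0.05, against 5.88% of all clusters. The same Cre/+ TAM mice 1 and 2 had the highest border-associated macrophage markers, with *Mrc1* at 10.26 and 8.30, *Ms4a7* at 9.82 and 8.48, and list means of 6.96 and 5.60. The highest *Ms4a7* signal in the other Cre/+ TAM mice was 6.00, and in wt TAM 4.36. Of the 11 markers 10 had a difference above 0 from wt TAM, from 0.05 for *Cd209f* to 3.27 for *Ms4a7*, and *Lyve1* had −0.01. The part of such macrophages, or of microglia that express these genes, in the *Pmepa1* signal was not tested.

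**Figure D3:**
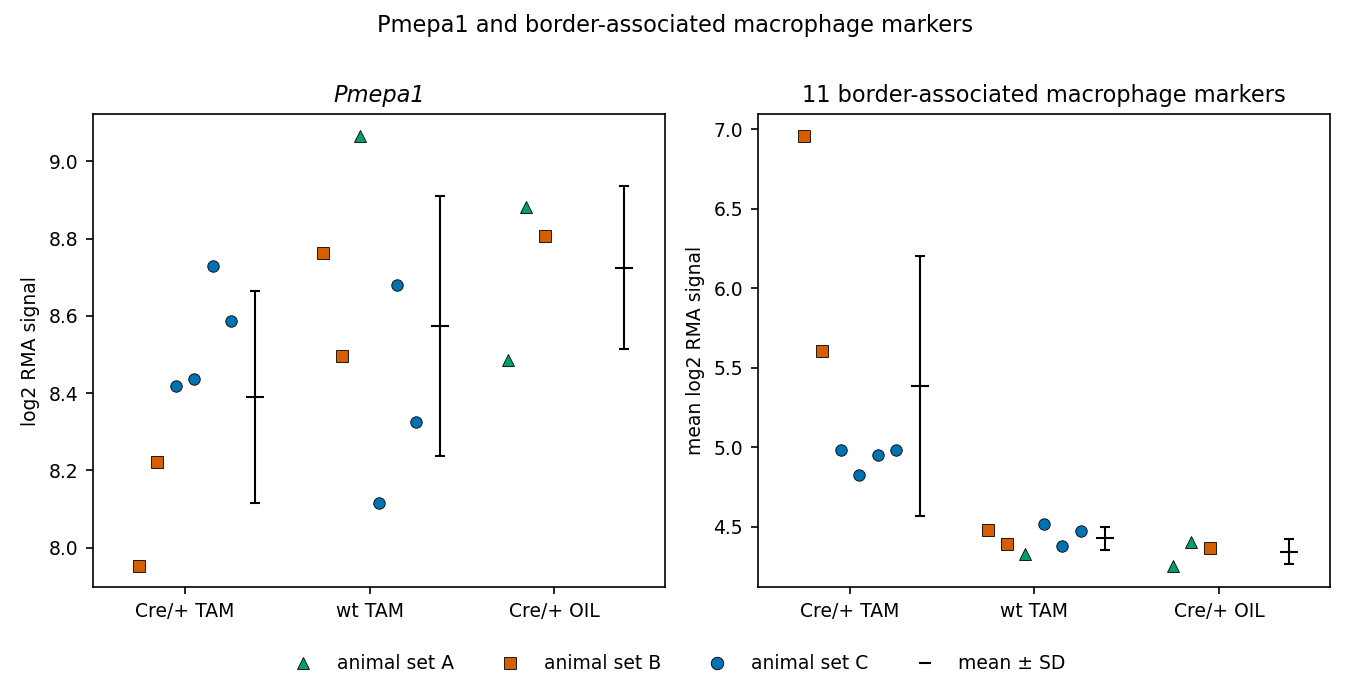
Log2 RMA signal of *Pmepa1* (left) and mean log2 RMA signal of 11 border-associated macrophage markers (right) by group; each point is 1 mouse, coloured and shaped by set of animal numbers, and bars give mean ± SD. Cre/+ TAM mice 1 and 2 (squares) had the lowest *Pmepa1* signals of their group, 7.95 and 8.22, and the highest marker means, 6.96 and 5.60.

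Cre/+ TAM was also compared with Cre carriers that received no tamoxifen, so that the deletion and tamoxifen itself cannot be told apart there. Of the 9 genes, 0 passed the adjusted threshold between Cre/+ TAM and Cre/+ OIL, as did 0% of all clusters, and 0 of 9 had an unadjusted p under 0.05 against 5.84% of all clusters. Groups without overlap were found for 0 of 9 genes and 2.89% of all clusters. *Pmepa1* and *Ski* had the largest differences, both lower in Cre/+ TAM. For *Pmepa1* 4 of 6 Cre/+ TAM mice lay below all Cre/+ OIL mice, and the difference was −0.33 (−0.74 to 0.07, unadjusted p = 0.100, adjusted p = 0.876; 0.0454 and 0.813 with quantile normalization). For *Ski* the count was likewise 4 of 6 and the difference −0.25 (−0.54 to 0.05, unadjusted p = 0.0936, adjusted p = 0.875). The other differences ran from −0.18 for *Smad7* to 0.09 for *Smad2*, and no interval of the 9 reached below −0.74 or above 0.47. Both comparisons use the same Cre/+ TAM arrays, so their values are given side by side and are not independent. No Cre/+ OIL mouse belonged to set C.

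The control groups were also compared with each other. They differ both in Cre, with its lost *Cx3cr1* copy, and in tamoxifen, and these cannot be told apart. Between wt TAM and Cre/+ OIL 0 of 9 genes passed the adjusted threshold (0% of all clusters), and 0 of 9 had an unadjusted p under 0.05 against 5.22% of all clusters, and 0 of 9 showed no overlap against 1.95%. The differences ran from −0.16 for *Tgfbi* (unadjusted p = 0.198, adjusted p = 0.949) to 0.12 for *Smad6*. For *Tgfbi* 4 of 6 wt TAM mice lay below all Cre/+ OIL mice. In the order of the group means, *Tgfbi* was highest in Cre/+ TAM (6.88 ± 0.19 SD, n = 6), then Cre/+ OIL (6.82 ± 0.06, n = 3), then wt TAM (6.66 ± 0.13, n = 6). *Ski* and *Pmepa1* were highest in Cre/+ OIL (7.39 ± 0.08 and 8.72 ± 0.21), then wt TAM (7.31 ± 0.20 and 8.57 ± 0.34), then Cre/+ TAM (7.14 ± 0.21 and 8.39 ± 0.27). Over the 9 genes, 17 of 18 pairs of neighbouring group means lay closer together than the larger of their SDs, and the exception was *Tgfbi* in Cre/+ OIL and wt TAM.

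**Figure D4:**
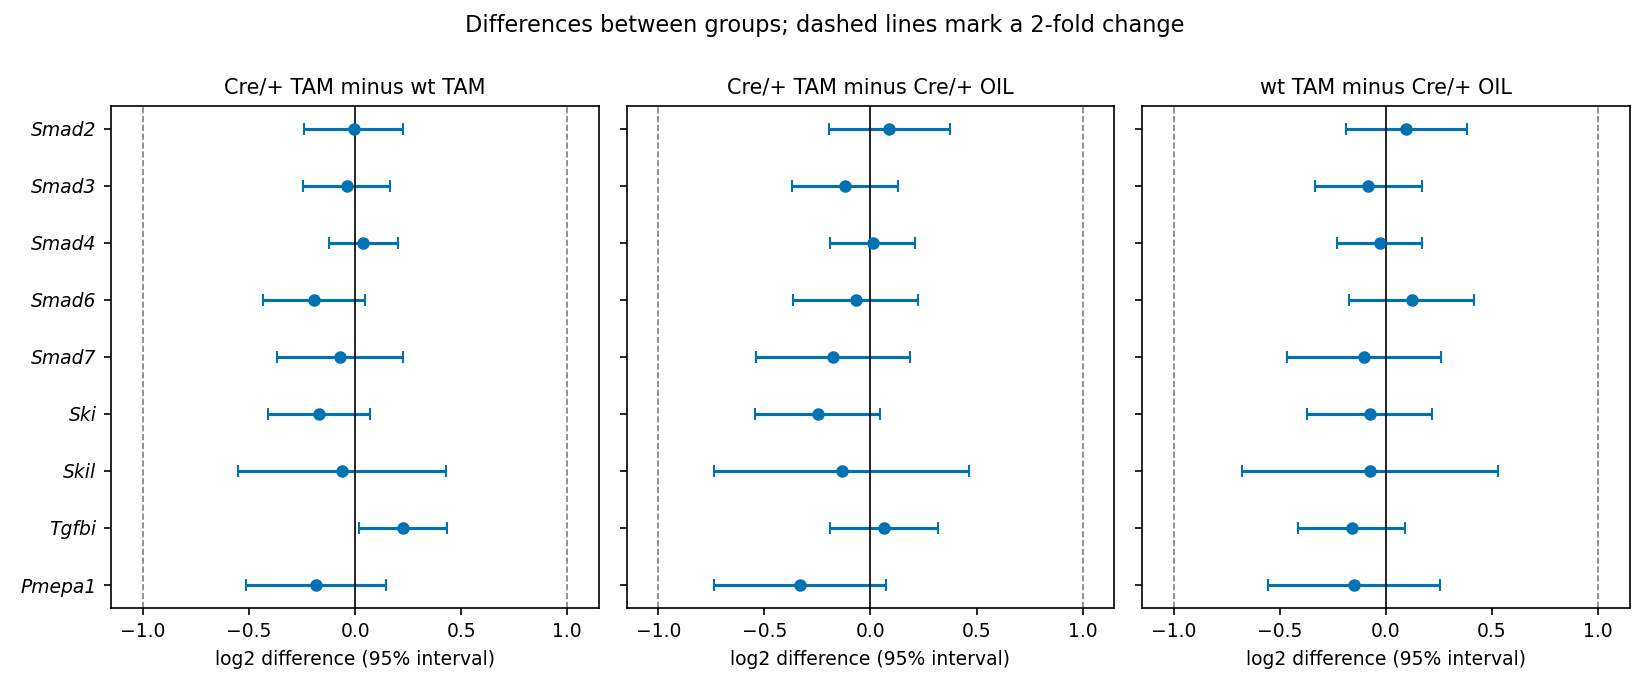
Log2 differences of the 9 genes (points) with 95% intervals (bars) for Cre/+ TAM minus wt TAM, Cre/+ TAM minus Cre/+ OIL and wt TAM minus Cre/+ OIL; the horizontal axis is log2 and dashed lines mark a 2-fold change at −1 and 1. Each interval lay inside the dashed lines, and the interval of *Tgfbi* in the first comparison, 0.02 to 0.43, was the one that did not include 0.

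Patterns over the 15 arrays were also set against 15573 gene symbols, as descriptions only. *Ski* was most like *Smurf1* (r = 0.90), which encodes a ubiquitin ligase that Smad7 recruits to the receptor, followed by *Zfp292* and *Zfp119b* (both 0.88). *Tgfbi* was most like *Dbf4* (0.90), *Polr2d* (0.87) and *Ezh2* (0.82). *Pmepa1* was most like *Pld1* (0.89), *Golm1* and *Asph* (both 0.88), and *Smad7* most like *Tuba1a* (0.88), *Gimap6* (0.86) and *Mef2c* (0.81).

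The rest of the pathway was followed in 58 other genes: 12 receptors, ligands and Smads of the BMP side, 16 modulators, 12 nuclear partners and 18 target genes. Between Cre/+ TAM and wt TAM 0 of 58 passed the adjusted threshold (0.0246% of all clusters), with 3 higher and 3 lower at an unadjusted p under 0.05 (2.92% and 2.91% of all clusters). The median difference was 0.00 against −0.02 over all clusters. Between Cre/+ TAM and Cre/+ OIL 0 of 58 passed, with 2 higher and 2 lower unadjusted (2.93% and 2.91% of all clusters). Between wt TAM and Cre/+ OIL 0 of 58 passed, with 2 higher, *Smad9* (0.32) and *Zeb1* (0.30), and 0 lower at the unadjusted threshold (2.98% and 2.24% of all clusters). The *Smad9* means, 4.32 in wt TAM and 4.01 in Cre/+ OIL, lay below every array median, where a signal may be background.

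The largest of these differences was that of *Cdkn1a*, which encodes the cell cycle inhibitor p21 and is a classical Smad target. Its signals were 7.42 to 9.98 in Cre/+ TAM (median 7.85), 6.16 to 7.89 in wt TAM (median 6.67) and 6.43, 6.33 and 8.45 in Cre/+ OIL. Cre/+ TAM mice 1 and 2 stood at 9.98 and 9.63, and the highest value of each control group came from set B. Within set C the 4 Cre/+ TAM mice had 7.42 to 8.09 and the 3 wt TAM mice 6.16 to 6.83. The share of all clusters that separate in this way was not counted. The difference from wt TAM was 1.58 (SE 0.47, unadjusted p = 0.00359, adjusted p = 0.494). With the 3 sets of animal numbers as a block, a setting added after the data were seen, it was 1.57 (limma adjusted p = 0.0135). That was the 1 call among the 58 genes there, where 33 of 32471 clusters were called. With the range of animal numbers as a block *Cdkn1a* was not called. *Dab2*, an adaptor that binds Smads and the receptors, differed by 1.20 (unadjusted p = 0.0193, adjusted p = 0.741). Its signals of 10.56 and 8.98 in Cre/+ TAM mice 1 and 2, against at most 7.32 in the other 13 mice, moved with the border-associated macrophage markers given above, and their part in it was not tested.

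*Tgif1*, a nuclear co-repressor of Smads, was the remaining gene with a higher value at the unadjusted threshold (0.36, limma unadjusted p = 0.0432, adjusted p = 0.830). The 3 with lower values were *Timp3*, an inhibitor of matrix proteases (−0.37), *Bmpr2*, a BMP receptor (−0.30), and *Zfyve9*, which presents Smad2 to the receptor (−0.26), with limma unadjusted p-values of 0.0221 to 0.0296 and adjusted p-values of 0.755 to 0.788. The *Timp3* means of 3.23 in Cre/+ TAM and 3.60 in wt TAM lay below every array median, where a signal may be background. Against Cre/+ OIL *Smurf1* had signals of 6.50 to 7.07 in Cre/+ TAM (median 6.72) and 7.18, 7.19 and 7.07 in Cre/+ OIL, with no overlap, as in 2.89% of all clusters. The difference was −0.39 (SE 0.15, unadjusted p = 0.0213, adjusted p = 0.800), and wt TAM, at 6.54 to 7.26, overlapped both groups. *Zfyve9* differed by −0.30 and *Dab2* and *Cdkn1a* by 1.33 and 1.31 against Cre/+ OIL. *Smurf1* was not alone in its lack of overlap there. *Dab2* and *Smad9*, higher in Cre/+ TAM, and *Ppm1a* and *Hdac1*, lower in Cre/+ TAM, did not overlap with Cre/+ OIL either.

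**Figure D5:**
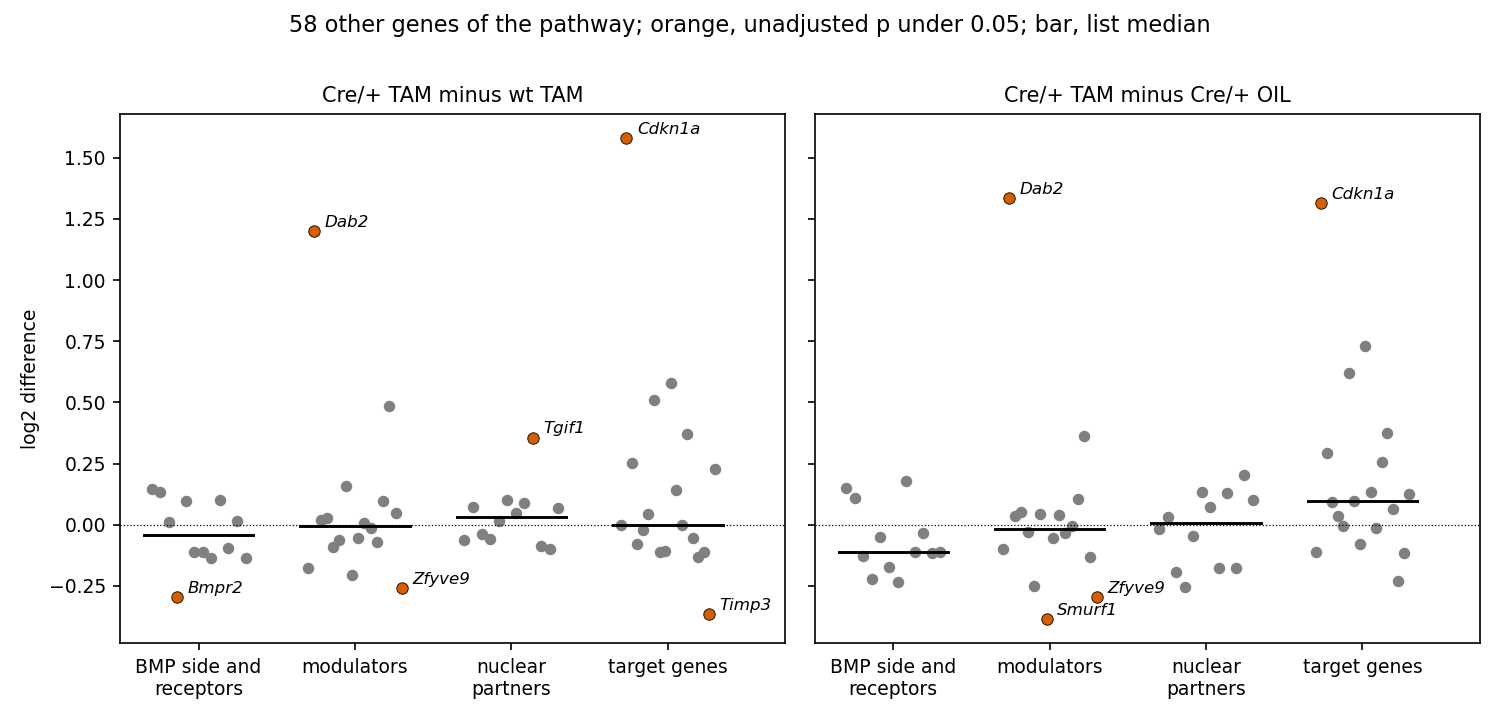
Log2 differences of 58 other pathway genes (points) in 4 lists for Cre/+ TAM minus wt TAM (left) and Cre/+ TAM minus Cre/+ OIL (right); black bars are list medians and orange points have an unadjusted p under 0.05. *Cdkn1a* (1.58 and 1.31) and *Dab2* (1.20 and 1.33) stood farthest from 0, and 0 of the 58 genes passed the adjusted threshold.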

How the data were processed

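RNA of sorted microglia was amplified and hybridised by the authors to Affymetrix Mouse Gene 2.0 ST arrays. The authors made RMA values from the scans and deposited them on the log2 scale; the software and the build are not given in the sources used here. A second deposited table of log2 values differed by at most 0.005 on the 34390 shared clusters. The deposited fold changes (signed scores) and p-values of the authors' own comparisons were not used. Conditions came from the sample labels, and mice are numbered within a group in accession order. There is no read depth on arrays, so precision rests on how many there are.

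A linear model with 1 mean for each group was fitted to the 15 arrays in limma 3.58.1 (lmFit, then eBayes; R 4.3.3). Each of 3 contrasts was tested two-sided over 32471 clusters with a symbol, with Benjamini-Hochberg adjustment and calls under 0.05. Clusters without a symbol (1919) were left out, and those with several (128) were named nowhere. The members and all lists were chosen with earlier results of these data known. All members are named. Of the pathway list, called genes or, failing that, up to 4 of either direction with an unadjusted p under 0.05 are named. Those whose groups did not overlap against Cre/+ OIL are named too, and for likeness the 3 highest Pearson r. The fit was tested on simulated data. Alternatives were other scalings, filters, variance models and arrays, the methods' t-test, the range of animal numbers and each array left out. The 3 sets of animal numbers as a block, and set B alone, were added after the data were seen. Figures were drawn with matplotlib 3.10.9.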

Additional observations from a re-analysis of the deposited data

Results flagged for a closer look

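*Smad6* in wt TAM mouse 3, at a log2 signal of 4.37, stood apart from the other 5 mice of its group, with a gap of 0.736 of the group's range. It was 1 of 18 groups of member values checked, and chance gives about 1 in 20. The mouse carries the unexplained neg in its title. The *Pmepa1* difference between Cre/+ TAM and wt TAM differed by 0.86 between the upper and lower range of animal numbers (limma unadjusted p = 0.00511, adjusted p = 0.477), from −0.69 in the lower to 0.17 in the upper range. The cause of either was not tested.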

How the results depend on the processing

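Under every alternative run 0 of the 9 genes was called in any comparison, and the lowest adjusted p was 0.364 (*Pmepa1*, Cre/+ TAM against wt TAM, lower range of animal numbers). Of 690 values of single genes under alternatives, 635 kept their sign and 55 turned it, at sizes of at most 0.30; the cause was not tested. Of the 58 pathway genes 1 was called in the lower range of animal numbers against either control (*Dab2*) and 1 with the 3 sets as a block against wt TAM (*Cdkn1a*). Over all clusters the calls against wt TAM were 8, but 51 with the range of animal numbers as a block, 33 with the 3 sets, 87 in the lower and 3 in the upper range, 30 against both controls, 3 without the neg arrays, 0 in set B alone and 1 by the methods' t-test. Leaving out 1 array gave 2 (without wt TAM mouse 2) to 15 (without Cre/+ TAM mouse 1). Against Cre/+ OIL they were 0, but 21 with the range as a block, 84 in the lower range and 6 without the neg arrays.

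For Cre/+ TAM minus wt TAM, *Smad2* turned to 0.017 with median centring, 0.019 without the neg arrays, 0.021 with the range as a block, 0.0030 with the 3 sets, 0.098 in the upper range and 0.025 against both controls, and *Smad4* to −0.0068 with quantile normalization. *Skil* turned to 0.023 with the range as a block. In the upper range *Smad3* was 0.018, *Smad7* 0.083, *Skil* 0.15 and *Pmepa1* 0.17. Leaving out 1 array gave −0.067 to 0.044 for *Smad2*, −0.092 to 0.012 for *Smad3*, −0.14 to 0.0063 for *Smad7* and −0.15 to 0.067 for *Skil*.

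For Cre/+ TAM minus Cre/+ OIL, *Smad4* was −0.022 with median centring, −0.0074 with the range as a block, and −0.013 in the lower range and in set B. *Smad2* was −0.14 without the neg arrays and −0.095 in set B. *Smad6* was 0.10 and 0.097 in these settings, 0.0051 with the range and 0.24 with the 3 sets as a block, where *Smad3* was 0.011. *Skil* was 0.20 with the range as a block and 0.094 in the lower range. Leaving out 1 array gave −0.051 to 0.20 for *Smad2*, −0.016 to 0.029 for *Smad4*, −0.15 to 0.0010 for *Smad6*, −0.31 to 0.071 for *Smad7* and −0.35 to 0.24 for *Skil*.

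For wt TAM minus Cre/+ OIL, *Smad4* was 0.021 with quantile normalization, and *Skil* was 0.0071 with array weights, 0.18 with the range as a block and 0.25 in the lower range, where *Ski* and *Pmepa1* were both 0.050. *Smad2* was −0.16 without the neg arrays and −0.0069 in set B, where *Smad3* was 0.031 and *Ski* 0.18. *Smad3* was 0.017 with the 3 sets. Leaving out 1 array gave −0.044 to 0.21 for *Smad2*, −0.13 to 0.0013 for *Smad3*, −0.24 to 0.14 for *Smad7* and −0.28 to 0.30 for *Skil*. No paired analysis was possible because the labels give each mouse its own number. Other rows of a member's symbol were not run, since each had 1 row; *Smad6* lay below the filter on median signal, and the upper range holds no Cre/+ OIL mouse.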
